A study of Mus musculus with 5 samples.

Results

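The genes described here were 8 transcriptional regulators associated with the identity of haematopoietic stem cells (HSCs): Mecom, Hlf, Mllt3, Erg, Fli1, Prdm16, Gata3 and Ndn. They were taken by name from a table of 11643 genes, in which all 8 were found, and all 8 were among the 10570 genes tested, whose mean over the libraries reached 1 FPKM. FPKM counts fragments relative to gene length and to the mapped total of the library. RNA was sequenced from bone marrow HSCs of C57BL/6 mice, sorted as Lin- cells that carried c-Kit, Sca-1 and CD150 and lacked CD48. Of 5 libraries, 2 were labelled Tle1/3/4-deficient (the deficient-labelled pair) and 3 control. The deficient-labelled mice carried floxed Tle1, Tle3 and Tle4 together with Vav-Cre, a recombinase meant to excise all of them throughout the blood system and so not confined to HSCs. The labels give the second genotype only as control, and the sources used here do not give age, sex or whether cells of several mice were pooled.

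HSCs are kept by a small network of DNA-binding proteins that hold the self-renewal programme in place and delay commitment to blood lineages. TLE proteins are co-repressors without a DNA-binding domain of their own; they are brought to genes by partners such as the RUNX, TCF/LEF and HES factors. The comparison asked how HSC gene expression differs when Tle1, Tle3 and Tle4 are targeted, and the regulators of HSC identity are read here in that comparison.

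Across the 8 regulators, Ndn showed the widest separation, being near 0 in both deficient-labelled libraries and at 27.0 FPKM or more in every control. Gata3 and Hlf came next, with deficient-labelled means at 0.306 and 0.349 of the control means. Mecom, Mllt3 and Erg were lower in both deficient-labelled libraries by narrow margins, Prdm16 was lower in 1 of them, and Fli1 was at a similar level in both groups. None of the 8 passed over all genes tested (limma, Benjamini-Hochberg adjusted p under 0.05), against 0.0189% of all genes, which is 2 genes (Myl10 and Wfdc17).

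Sequences upstream of the annotated start are shown for the 3 genes with the largest differences, because partners that recruit TLE proteins bind DNA and such sites can be looked for there. RefSeq promoter windows on GRCm38.p6 matched 7 of the 8 genes, with 11 windows. Capitals mark every match, on either strand, to TGNGGT (RUNX), CTTTGA (TCF/LEF), CACGNG (HES), CCGGAA (ETS), AGATAA (sought by the GATA family) and TTACNTAA (PAR bZIP, the family of HLF). For Hlf and Gata3 the 250 bases before the start are given, and for Ndn 30 bases, from 130 to 101 bases before the RefSeq start, with only the PAR bZIP match in capitals.
Hlf, chr11:90390918-90391167, minus strand: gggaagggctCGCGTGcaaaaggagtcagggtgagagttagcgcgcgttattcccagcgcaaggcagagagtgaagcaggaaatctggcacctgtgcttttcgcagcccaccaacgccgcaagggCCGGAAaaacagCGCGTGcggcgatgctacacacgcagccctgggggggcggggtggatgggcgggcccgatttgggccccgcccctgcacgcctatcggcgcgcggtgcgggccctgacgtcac
Gata3, chr2:9878601-9878850, minus strand: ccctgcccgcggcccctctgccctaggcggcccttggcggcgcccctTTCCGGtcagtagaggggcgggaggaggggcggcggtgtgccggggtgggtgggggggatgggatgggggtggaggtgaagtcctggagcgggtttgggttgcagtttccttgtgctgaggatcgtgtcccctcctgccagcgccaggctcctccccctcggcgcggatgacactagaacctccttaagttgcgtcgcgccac
Ndn, chr7:62348147-62348176, plus strand: caggaaatcttTTACATAAgcctagtggta

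The Hlf window held 2 matches to the HES letters, a motif found in 23.6% of 32536 mouse promoter windows of this length, and 1 to the ETS letters, found in 12.1%. The Gata3 window held 1 ETS match and none of the other 5 motifs. The Ndn window held 1 PAR bZIP match, found in 2.03% of promoter windows, and 1 RUNX match, found in 40.2%. The Hlf window was rich in CpG, with 26 CpG dinucleotides against a median of 6 over all windows, and the Ndn window had 5. A match says only that the letters occur, and GENCODE M21 places the Ndn start 1708 bases upstream of the RefSeq one, so the window is not the promoter under both annotations.

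The targeted genes are the check of the labels, and none of the 3 lay below every control in both deficient-labelled libraries. Tle3 went the opposite way. Tle3 had 32.3 and 31.6 FPKM in the deficient-labelled pair, against 2.48, 4.97 and 5.61 FPKM in the controls (log2 fold change 2.68, limma adjusted p = 0.424). Tle4 had 0.353 and 0.203 FPKM in the deficient-labelled pair, against 5.67, 0.0129 and 5.29 FPKM in the controls. Tle1 was at 2.84 and 4.37 FPKM against 1.83, 0.811 and 3.33 FPKM in the controls, so its groups overlapped with the higher mean in the deficient-labelled pair. A gene-level value includes exons outside the floxed part, so every direction below rests on the labels. The columns summed to between 599140 and 683820 FPKM. Absolute depth is unknown, and relative depths read from the commonest ratios of low values differed by at most 1.47 times between libraries, on thin support of 10.0% to 34.0% of the low genes compared. Exact values of 0 can be failed estimates, since the housekeeping genes Rpl41 and Eif4a1 are each at 0 in a single control (replicates 1 and 2). None of the 8 regulators was listed at 0 in any library. Of the genes for the proteins used in the sort, Kit and Slamf1 were present in every library, but Ly6a, which encodes Sca-1, was at 14.05 FPKM in deficient-labelled replicate 2, against 155 FPKM in replicate 1 and 57.8 to 199 FPKM in the controls. Cd48, whose protein the sorted cells lacked, had 7.19 and 23.4 FPKM in the deficient-labelled pair, against 3.22, 4.63 and 13.0 FPKM in the controls, and was highest in that same replicate 2.

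**Figure D1:**
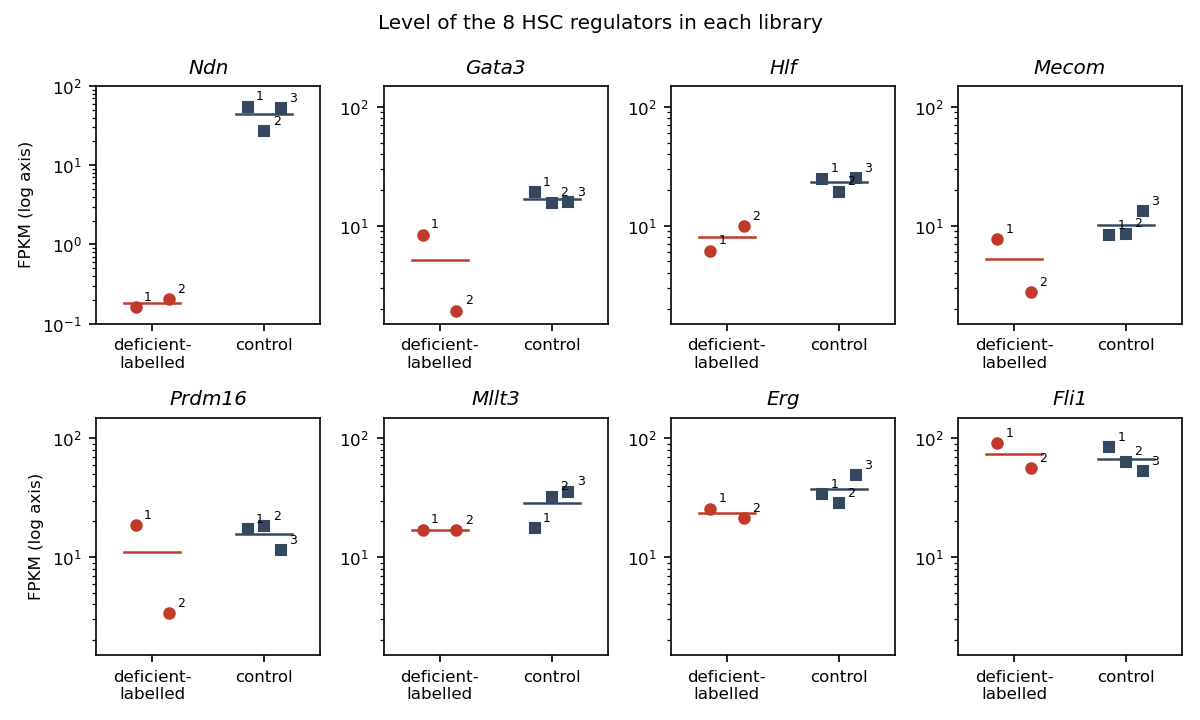
FPKM of each of the 8 regulators on a log axis, with deficient-labelled libraries as red circles left of the controls as dark squares, numbered by replicate, and group means as lines; the Ndn axis covers a wider range than the others. Ndn is separated by the widest gap, Gata3, Prdm16 and Mecom are lowest in deficient-labelled replicate 2, and the Fli1 groups overlap.

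Ndn encodes necdin, a MAGE-family growth suppressor expressed from the paternal allele and known as a restraint on HSC cycling. It had 0.162 and 0.205 FPKM in the deficient-labelled pair, against 55.0, 27.0 and 52.2 FPKM in the controls. The groups were far apart: both deficient-labelled values were below 1 FPKM, while in the controls Ndn ranked at the 77.6th percentile of mean level among the genes tested. Its log2 fold change was -5.21 (SE 0.60) on the log2(FPKM + 1) scale, with an unadjusted p of 3.48e-05 and an adjusted p of 0.0736 (limma). That scale understates a change to values below 1 FPKM, and with a pseudocount of 0.1 the log2 fold change was -7.24. The adjusted p passed only with robust eBayes, at 0.0332. Ndn overlaps the gene Gm32061 in GENCODE M21 and shares no exonic bases with it.

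Of the other MAGE genes listed, 5 were tested and none passed. Maged1 and Maged2 were also below every control, Maged1 at 27.1 and 23.0 FPKM in the deficient-labelled pair against 49.9, 56.2 and 53.5 FPKM in the controls. Maged2 was at 27.7 and 19.2 FPKM against 54.0, 49.1 and 52.7 FPKM in the controls. Their log2 fold changes were -1.06 (SE 0.32) and -1.13 (SE 0.34), both with an adjusted p of 0.439 (limma). Ndnl2, a necdin-like gene, had 34.9 and 32.0 FPKM in the deficient-labelled pair, within the 19.7 to 48.5 FPKM of the controls.

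Ndn is imprinted, so the other imprinted genes of HSCs were read beside it. Besides Ndn, 10 were tested, 7 with negative and 3 with positive log2 fold changes, and 3 lay below every control. Among all genes tested, 55.7% had a negative log2 fold change, 15.9% lay below every control and 10.2% above. None of the 10 passed. Cdkn1c, which encodes the cyclin-dependent kinase inhibitor p57, had 15.2 and 18.965 FPKM in the deficient-labelled pair against 44.0, 41.5 and 48.2 FPKM in the controls (limma, log2 fold change -1.34, SE 0.35, adjusted p = 0.433). Phlda2, a small membrane-binding protein of an imprinted cluster, was at 12.4 and 6.02 FPKM against 18.2, 49.3 and 49.4 FPKM in the controls (limma, adjusted p = 0.451). Mkrn3, which lies in the same imprinted domain as Ndn, had 3.93 and 0.0428 FPKM in the deficient-labelled pair, against 4.66, 0.0251 and 3.96 FPKM in the controls. The Mkrn3 groups thus overlapped fully, with 1 library near 0 in each. Peg12 and Ube3a, also of the imprinted list, overlapped between the groups too. Peg12 had 1.46 and 5.06 FPKM in the deficient-labelled pair, against 5.74, 3.88 and 10.1 FPKM in the controls (log2 fold change -0.89). Ube3a was at 31.2 and 23.4 FPKM against 26.3, 18.6 and 24.3 FPKM in the controls (log2 fold change 0.24). Gnas, the most abundant of the list, was at 553 ± 159 against 506 ± 21.7 FPKM in the controls (SD, n = 2 and 3).

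Gata3 encodes a zinc-finger factor best known for directing T cell development and also expressed in long-term HSCs. It had 8.40 and 1.92 FPKM in the deficient-labelled pair, against 19.1, 15.6 and 15.9 FPKM in the controls. The controls were tight, with an SD of 11.7% of their mean, and both deficient-labelled values lay below them, though they differed from each other more than the controls did. The log2 fold change was -1.76 (SE 0.66, unadjusted p = 0.0303, limma adjusted p = 0.537). Without deficient-labelled replicate 2 it was -0.92, and without replicate 1 it was -2.61. Of 18 T cell markers listed, 3 were analysed here, with summed levels of 0.167 and 2.66 FPKM in the deficient-labelled pair and 5.23, 0 and 3.40 FPKM in the controls. Most of the sum in control replicate 1 was Cd4, at 5.10 FPKM, and the part of these markers in the Gata3 values was not tested. In GENCODE M21 Gata3 shares exonic bases with Gm13256 on the opposite strand and 9230102O04Rik on the same strand. The sources used here do not say whether counting used strand, so their reads cannot be told apart.

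The other GATA genes lay the opposite way. Gata2, a factor of stem and progenitor cells, had 222 and 194 FPKM in the deficient-labelled pair, against 171, 170 and 114 FPKM in the controls. Gata1, the erythroid and megakaryocyte factor, was at 59.0 and 67.5 FPKM against 41.6, 37.4 and 2.33 FPKM in the controls. In both genes every deficient-labelled value was above every control, and neither passed (limma, adjusted p = 0.687 and 0.663). Within each library, where scaling between libraries drops out, the ratio of Gata3 to Gata2 was 0.0378 and 0.00993 in the deficient-labelled pair against 0.112, 0.0922 and 0.139 in the controls.

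Hlf encodes a PAR bZIP factor whose expression marks HSCs. It had 6.17 and 9.96 FPKM in the deficient-labelled pair, against 24.9, 19.4 and 25.15 FPKM in the controls. The higher deficient-labelled value was 48.6% below the lowest control. The log2 fold change was -1.44 (SE 0.48, unadjusted p = 0.0185, limma adjusted p = 0.496). Unlike that of Gata3, the Hlf value was lower in replicate 1 than in replicate 2 of the deficient-labelled pair, and its log2 fold change was -1.74 without replicate 2 and -1.13 without replicate 1. The related Dbp was at 10.5 FPKM and listed at 0 in deficient-labelled replicates 1 and 2, and at 21.2, 23.6 and 8.97 FPKM in the controls. Tef had 3.78 and 1.14 FPKM in the deficient-labelled pair and 1.96, 14.8 and 6.90 FPKM in the controls. Nfil3, a bZIP repressor that binds the same DNA element, had 0.0653 and 26.1 FPKM in the deficient-labelled pair and 0.0729 to 10.9 FPKM in the controls. None of these 3 relatives separated the groups or passed.

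**Figure D2:**
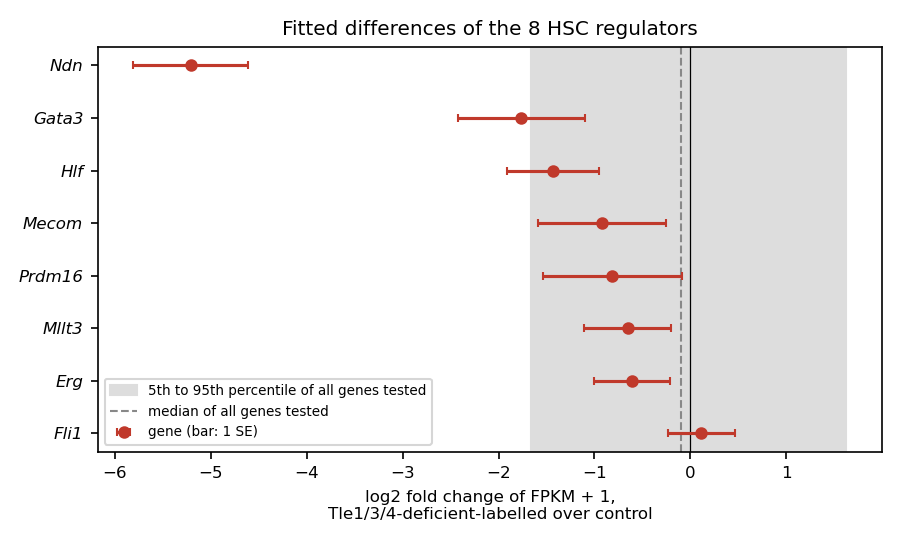
Fitted log2 fold change of FPKM + 1, deficient-labelled over control, for each regulator (point) with 1 SE (bar), beside the median of the 10570 genes tested (dashed line, -0.10) and their 5th to 95th percentile (grey, -1.66 to 1.63). Ndn at -5.21 and Gata3 at -1.76 lie beyond the 5th percentile, and Fli1 at 0.12 lies above 0.

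Mecom and Prdm16 encode related PRDM zinc-finger proteins needed for HSC maintenance. Mecom had 7.69 and 2.77 FPKM in the deficient-labelled pair, against 8.36, 8.57 and 13.3 FPKM in the controls. Its deficient-labelled replicate 1 was only 7.95% below the lowest control, and replicate 2 was far lower (limma, log2 fold change -0.92, SE 0.67, adjusted p = 0.723). After quantile normalization the Mecom groups overlapped. Without deficient-labelled replicate 2 its log2 fold change was -0.32. A gene-level value adds the long and short products of Mecom, which start at different promoters, so these cannot be told apart, and its exons overlap those of the opposite-strand Mecomos.

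Prdm16 had 18.6 and 3.40 FPKM in the deficient-labelled pair, against 17.3, 18.2 and 11.4 FPKM in the controls. Deficient-labelled replicate 1 was the highest of the 5 libraries and replicate 2 the lowest, so the groups overlapped (limma, log2 fold change -0.82, SE 0.72, adjusted p = 0.767). Without deficient-labelled replicate 2 the sign turned, to 0.26. The ratio of Mecom to Prdm16 within a library was 0.414 and 0.815 in the deficient-labelled pair and 0.483, 0.469 and 1.17 in the controls, so the pair kept to an overlapping range. Prdm16 exons overlap those of B230104I21Rik on the opposite strand.

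Of the 7 other PRDM genes tested, 3 had negative and 4 positive log2 fold changes, and none passed. Prdm9, a meiotic histone methyltransferase, had 2.51 and 11.6 FPKM in the deficient-labelled pair, above the 0.419, 0.992 and 2.37 FPKM of the controls, but replicate 1 only just so. Of 9 partner co-repressors of MECOM and PRDM16, 6 had negative and 3 positive log2 fold changes, and none passed. The histone methyltransferase Suv39h1 had 20.0 and 15.1 FPKM in the deficient-labelled pair against 45.2, 34.0 and 38.7 FPKM in the controls (limma, log2 fold change -1.12, SE 0.37, adjusted p = 0.496). The deacetylase Hdac2 was at 49.5 and 64.7 FPKM against 84.6, 95.6 and 111 FPKM in the controls, and Ehmt2, a histone H3 lysine methyltransferase, lay above every control at 42.7 and 24.3 FPKM against 15.7, 15.9 and 20.0 FPKM. The most abundant, Hdac1, was at 132 ± 19.2 against 133 ± 18.7 FPKM in the controls (SD, n = 2 and 3).

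Erg and Fli1 encode closely related ETS factors that belong to the stem cell heptad together with Tal1, Lyl1, Lmo2, Gata2 and Runx1. Erg had 25.7 and 21.3 FPKM in the deficient-labelled pair, against 33.7, 28.6 and 49.2 FPKM in the controls, the gap to the lowest control being 10.3% of that control (limma, log2 fold change -0.61, SE 0.39, adjusted p = 0.702). Fli1, the most abundant of the 8 in both groups, had 90.6 and 56.6 FPKM in the deficient-labelled pair, against 84.7, 63.7 and 53.4 FPKM in the controls. The Fli1 groups overlapped across nearly their whole range (limma, log2 fold change 0.12, SE 0.35, adjusted p = 0.946), and its sign turned without deficient-labelled replicate 1 (-0.22). The ratio of Erg to Fli1 within a library was 0.283 and 0.376 in the deficient-labelled pair and 0.398, 0.449 and 0.921 in the controls. The deficient-labelled ratios were thus below every control, by a margin smaller than the spread of the controls, whose widest member was replicate 3. The ratio of Mllt3 to Fli1 overlapped between the groups, at 0.189 and 0.299 in the deficient-labelled pair and 0.209, 0.508 and 0.666 in the controls.

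**Figure D3:**
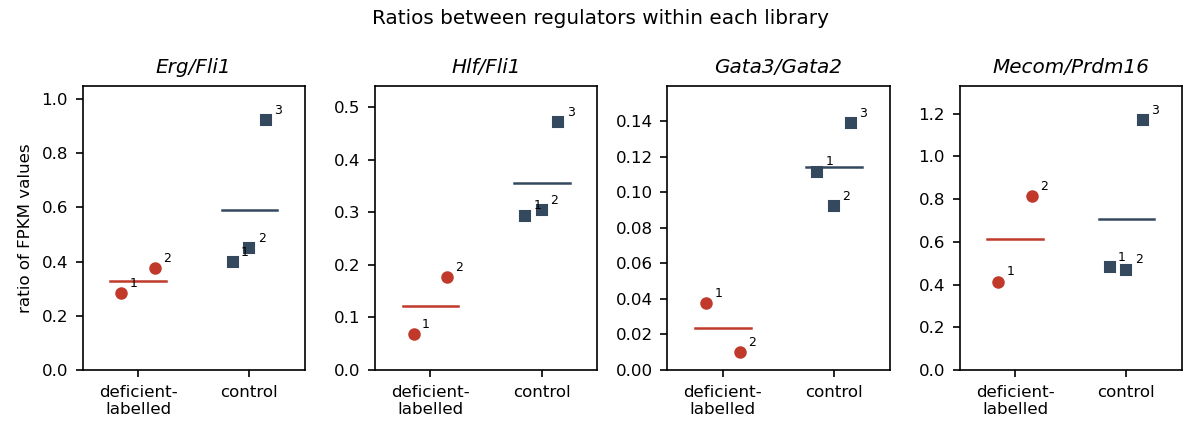
Ratio of FPKM values of pairs of regulators within each library, on linear axes from 0, with the deficient-labelled pair (red circles) left of controls (dark squares), replicate numbers, and group means as lines. The ratios to Fli1 of Erg and Hlf and of Gata3 to Gata2 are lower in both deficient-labelled libraries than in every control, whereas Mecom to Prdm16 overlaps, as does Mllt3 to Fli1, which is not plotted.

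The 5 heptad partners were spread around 0, with 3 positive and 2 negative log2 fold changes and a median of 0.15, and none passed. Lmo2, a LIM-domain adaptor and the most abundant, had 530 and 341 FPKM in the deficient-labelled pair, against 484, 653 and 542 FPKM in the controls. Gata2 was the only heptad partner whose groups did not overlap. Of 16 ETS genes other than Erg and Fli1, 7 had negative and 9 positive log2 fold changes, 4 lay below and 2 above every control, against 15.9% and 10.2% of all genes, and none passed. Spi1, which encodes the myeloid factor PU.1, had 114 and 255 FPKM in the deficient-labelled pair against 157, 79.6 and 109 FPKM in the controls. Ets1 was at 11.3 and 12.8 FPKM against 10.2, 0.332 and 6.57 FPKM, and Elf4 at 21.6 and 12.7 FPKM against 4.26, 10.6 and 9.29 FPKM, both above every control. Etv3 lay below every control, at 4.15 and 4.11 FPKM against 10.8, 9.81 and 5.62 FPKM in the controls.

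Mllt3 encodes AF9, a reader of acylated histones that links the methyltransferase DOT1L and the super elongation complex to active genes and is known in human cells to sustain HSCs. It had 17.1 and 16.9 FPKM in the deficient-labelled pair, against 17.7, 32.4 and 35.6 FPKM in the controls. The deficient-labelled values agreed closely, and the higher of them was only 3.21% below control replicate 1 (limma, log2 fold change -0.65, SE 0.45, adjusted p = 0.717). After median-of-ratios scaling or quantile normalization the groups overlapped. Of 12 other genes of these complexes, 7 had negative and 5 positive log2 fold changes, none passed and in none did the groups separate. Men1, which encodes the scaffold menin and was the most abundant, was at 41.9 ± 4.56 against 51.0 ± 17.3 FPKM in the controls (SD, n = 2 and 3). Dot1l had 13.9 and 5.94 FPKM in the deficient-labelled pair, against 4.94, 15.8 and 7.33 FPKM in the controls.

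Of the 8 regulators, 7 had a negative log2 fold change, against 55.7% of all genes tested. In 6 of the 8 (Ndn, Gata3, Hlf, Mecom, Mllt3 and Erg) both deficient-labelled values lay below every control, against 15.9% of all genes. An unadjusted p under 0.05 was reached by 3 of 8, all lower, against 5.18% of all genes in that direction. In either direction, 893 of 10570 genes had an unadjusted p under 0.05. The count of regulators was 2 of 8 without control replicate 1 or control replicate 2. In those runs 740 of 10527 and 709 of 10547 genes reached it in either direction. It was 1 of 8 without control replicate 3 or with the replicate number as a block. There 692 of 10481 and 776 of 10570 genes reached it in either direction. The median log2 fold change of the 8 was -0.87 and that of all genes tested -0.10. These are descriptions without a test, since the genes were chosen with earlier results of these data known. Median-of-ratios scaling moved the median of all genes to 0.0096 and that of the 8 to -0.77. In that scaling 5 of the 8 lay below every control, and the share of all genes below was 12.7% and above 13.4%, in place of 15.9% and 10.2%.

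**Figure D4:**
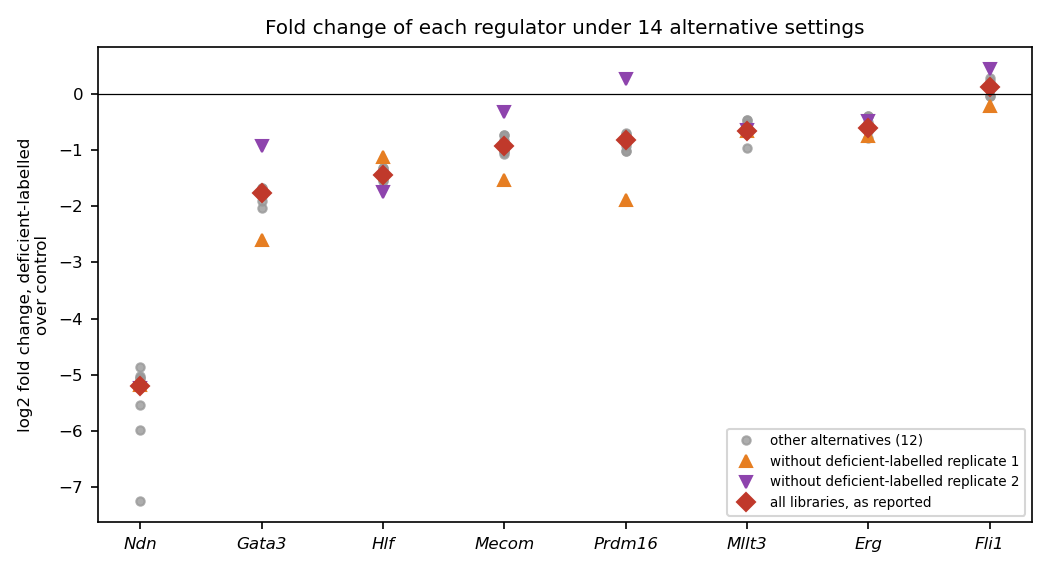
Log2 fold change of each regulator, deficient-labelled over control, as reported (red diamond) and under 14 alternatives, of which the runs without deficient-labelled replicate 1 (orange) or 2 (purple) are marked. Gata3, Mecom and Prdm16 spread most between those 2 runs, Prdm16 from -1.89 to 0.26, and Ndn stays at -4.86 or below.

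The order of levels differed between the groups. In the deficient-labelled pair the means ran Fli1, Erg, Mllt3, Prdm16, Hlf, Mecom, Gata3 and Ndn, and in the controls Fli1, Ndn, Erg, Mllt3, Hlf, Gata3, Prdm16 and Mecom. Neighbours in the control order overlapped between libraries except Hlf and Gata3. In the deficient-labelled order only Fli1 and Erg, Erg and Mllt3, and Gata3 and Ndn did not overlap, with 2 libraries each. The summed level of the 8 was 174 and 113 FPKM in the deficient-labelled pair against 261, 214 and 256 FPKM in the controls, and without Fli1 it was 83.8 and 56.5 FPKM against 176, 150 and 203 FPKM in the controls.

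Deficient-labelled replicate 2 was the lowest library for Gata3, Mecom, Prdm16, Erg and Mllt3. It also had the highest sums of granulocyte-monocyte and erythroid markers, while replicate 1 had the highest megakaryocyte sum. The 18 granulocyte-monocyte markers, all analysed, summed to 11926 and 70290 FPKM in the deficient-labelled pair and to 1028 to 3477 FPKM in the controls. Most of that sum in the deficient-labelled pair was S100a8, at 7679 and 37600 FPKM, against 222, 1657 and 1086 FPKM in the controls. All 18 had positive log2 fold changes, 12 lay above every control, against 10.2% of all genes, and none passed. In the rest the groups overlapped, as for Mpo at 1.15 and 958 FPKM against 6.25, 41.7 and 11.8 FPKM in the controls. The 9 erythroid markers summed to 92.5 and 349 FPKM against 17.9 to 39.2 FPKM in the controls, and the 11 megakaryocyte markers to 8206 and 3655 FPKM against 466 to 1166 FPKM. Most of the megakaryocyte sum in the deficient-labelled pair was Pf4, at 7503 and 3023 FPKM, against 839, 512 and 255 FPKM in the controls. Of the others, some were higher in replicate 1, such as Selp at 129 and 92.8 FPKM. Some were higher in replicate 2, such as Itga2b at 245 and 251 FPKM. The part of these markers in the lower levels was not tested. In sorted bulk samples, fewer cells that express a gene and less of its RNA per cell cannot be told apart. Of 11 endothelial markers, which Erg and Fli1 accompany in vessels, 10 were tested, 8 with negative and 2 with positive log2 fold changes. Of the 10, 4 lay below and 1 above every control, against 15.9% and 10.2% of all genes, and none passed. Cldn5 lay above, at 10.7 and 9.19 FPKM in the deficient-labelled pair against 0.0540, 0.145 and 4.11 FPKM in the controls. Emcn lay below, at 6.33 and 5.63 FPKM against 13.3, 20.4 and 22.5 FPKM. Kdr, with a mean below 1 FPKM, was not tested. It had 0.699 and 0.967 FPKM in the deficient-labelled pair, against 0.0124 FPKM in control replicate 1, and is listed at 0 in the other controls. The summed level of the 11 was 320 and 237 FPKM in the deficient-labelled pair against 479 to 660 FPKM in the controls. Egfl7, expressed by both endothelium and HSCs, was the most separated of these downward, at 54.3 and 57.5 FPKM against 204, 172 and 179 FPKM in the controls (limma, log2 fold change -1.71, SE 0.26, adjusted p = 0.227).

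HSC regulators outside the 8 were read from a separate list. Of 25 tested, 17 had negative and 8 positive log2 fold changes, 7 lay below and 1 above every control, against 15.9% and 10.2% of all genes, the median was -0.41 and none passed. Hoxa9, a homeobox factor of stem and progenitor cells, had 27.3 and 15.6 FPKM in the deficient-labelled pair against 44.0, 52.3 and 38.2 FPKM in the controls (limma, adjusted p = 0.518). Myb was at 30.6 and 52.7 FPKM against 58.5, 105 and 87.3 FPKM in the controls, and the zinc-finger gene Zfp521 at 2.58 and 5.68 FPKM against 10.7, 7.52 and 6.69 FPKM. Of 12 genes in a list of HSC surface and stem markers, 8 had negative and 4 positive log2 fold changes. The 4 positive included Cd48 (1.03), whose protein the sorted cells lacked. Esam was also positive, with a value of 0 in control replicate 3 against 74.0 and 103 FPKM in control replicates 1 and 2. Of the 12, 3 lay below and 1 above every control, and none passed. The gene above was Slamf1, at 31.8 and 31.0 FPKM in the deficient-labelled pair against 14.9, 24.0 and 21.1 FPKM in the controls. The stem cell antigen gene Cd34 was at 41.7 and 26.5 FPKM against 210, 141 and 187 FPKM in the controls (limma, adjusted p = 0.208).

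**Figure D5:**
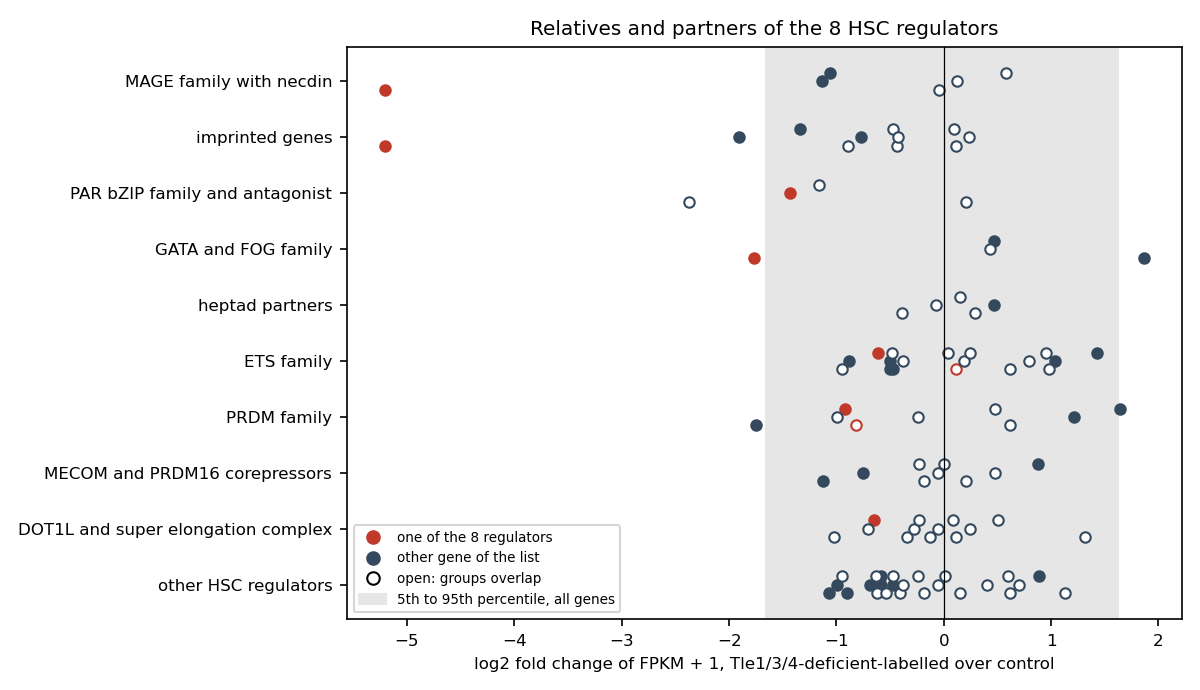
Log2 fold change, deficient-labelled over control, of every tested gene of 10 lists of relatives and partners, with the 8 regulators in red, other genes in dark blue, and open points where the groups overlap; the grey band is the 5th to 95th percentile of all genes tested. Ndn stands apart at -5.21 while its MAGE relatives reach -1.13, and the GATA list splits with Gata3 at -1.76 and Gata1 at 1.87.

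For each regulator, the tested gene with the nearest pattern was found as the smallest Euclidean distance between log2(FPKM + 1) values centred over the 5 libraries. It was Sh2b3 for Ndn (distance 0.89), Aga for Gata3 (0.33), Cdkn1c for Hlf (0.31), Gm3604 for Mecom (0.24), Armc3 for Erg (0.21), Robo4 for Mllt3 (0.17), Nwd1 for Prdm16 (0.17) and Cnot8 for Fli1 (0.11). Sh2b3 was at 0.112 FPKM and listed at 0 in deficient-labelled replicates 1 and 2, and at 39.0, 18.5 and 21.5 FPKM in the controls. Each distance rests on 5 libraries, and that of Ndn was the largest of the 8. The size of its centred pattern was also the largest. That size, the distance from a flat pattern, was 5.76 for Ndn, against 0.678 (Fli1) to 2.28 (Gata3) for the others. A larger pattern leaves room for a larger distance, so the distances do not rank how close the 8 matches are.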

How the data were processed

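The authors deposited 1 table of FPKM values, a row per gene symbol and a column per library, and its name gives the unit. TopHat, edgeR and mm9 are listed in the submitters' processing notes without role or version. The sources used here do not give the annotation, the tool behind FPKM or any filter. Columns were matched to samples by the names in the sample titles. Of 11643 genes, the 10570 whose mean reached 1 FPKM were tested as log2(FPKM + 1). The model held the group alone and was fitted by limma 3.58.1 under R 4.3.3 with trended eBayes (two-sided, 3 residual degrees of freedom), adjusted over all genes by Benjamini-Hochberg; the procedure was tested on simulated data. Nothing says whether replicates came from separate mice, so the p-values reflect the spread of these libraries, which may be technical. The 8 genes and the lists of relatives, partners and cell type markers were chosen with earlier results of these data known. Beyond the 8 genes, the named genes were, per list, the most abundant member and up to 3 with non-overlapping groups, 5 FPKM or more in the mean of the higher group and the largest difference, plus genes past the threshold and the nearest pattern of each regulator. Tal1, Ndnl2, Mkrn3, Peg12, Ube3a, Dbp, Tef, Nfil3, Dot1l, Kdr, Slamf1, Ly6a, Cd48, Cd4, Mpo, Rpl41 and Eif4a1 were named after their values were seen. Sequences are from RefSeq (GRCm38.p6) and overlaps from GENCODE M21 on GRCm38, matched by symbol, and no coordinates of the authors' build are given. Low values under 0.3 FPKM, within 0.5%, gave relative depth. Python 3.11.15, pandas 2.3.3 and matplotlib 3.10.9 were used for summaries and plots. Alternatives covered the pseudocount, filter, scaling, eBayes options, a replicate block and leaving out each library.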

Additional observations from a re-analysis of the deposited data

How the results depend on the processing

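Of 112 repeats of the 8 genes' fold changes, 107 kept their direction and their side of the threshold. A changed filter or eBayes option cannot alter a fold change, so in those runs the direction was fixed and only the side of the threshold could move. Ndn passed in 1 (robust eBayes, adjusted p = 0.0332), so that 1 of the 8 passed there, and over its 14 alternatives its adjusted p ran from 0.0332 to 0.398. The sign turned in 4. When each library was left out, Prdm16 ran from -1.89 to 0.26 (0.26 without deficient-labelled replicate 2) and Fli1 from -0.22 to 0.45 (-0.22 without deficient-labelled replicate 1 and -0.036 without control replicate 3). With the replicate block Fli1 was also at -0.036, because the block gives the same fold changes as leaving out control replicate 3. These 2 settings are therefore not separate checks of direction. The cause of the sign turns was not tested. The count of genes called, 2 as reported, was 0 with a pseudocount of 0.1 or 0.5 and with no filter on low values, 1 with eBayes without trend, 3 with quantile normalization, 5 with robust eBayes and 22 with the replicate block, and 0 to 5 when each library was left out. With a pseudocount of 0.1, 864 genes had an unadjusted p under 0.05, with 0.5 there were 883, with no filter 1004, and without control replicate 2 or deficient-labelled replicate 2 there were 709 and 947. The median log2 fold change of the 8 ran from -1.33 to -0.56 when each library was left out, and the number with non-overlapping groups from 6 to 8. It was 8 without deficient-labelled replicate 2, where Fli1 and Prdm16 lay above the controls and 28.8% of all genes lay below and 26.7% above them, and 4 with quantile normalization; a run with 1 deficient-labelled library assumes that it varies like the controls. Replicate numbers are shared by the groups but nothing says that they pair samples. Correlations of deviations across genes were 0.035 and 0.0069 for same-numbered libraries, and 0.032 for deficient-labelled replicate 2 with control replicate 3. With 2 deficient-labelled libraries, the deviations from their mean are mirror images. These correlations therefore cannot show whether the numbers pair samples. The block changed no call of the 8. With 3 residual degrees of freedom, a p that misses the threshold does not show that levels were alike.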
